A study of Rattus norvegicus with 8 samples.

Results

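The most abundant circular RNA (circRNA) listed in these 8 rat cerebral cortex libraries came from the plus strand of chromosome 9. The 33 circRNAs of its locus are described here, of 51995 in the deposited table. Members were all plus-strand circRNAs of chromosome 9 lying between 94431993 and 94548936 on Rnor_6.0, a window of 116943 bases. The locus was chosen by the mean RPM over all 8 libraries, as the place of the circRNA with the highest mean, from 94463647 to 94481167, so its high level is a description and is not tested. The window edges are the outermost start and end of the members, so a lack of plus-strand overlap is partly set by the choice of window. On either strand, 0 other circRNAs overlapped it. The nearest plus-strand circRNAs lay 106916 bases upstream and 340001 bases downstream, and the nearest on the minus strand lay 27022 bases downstream. Gaps around other loci were not measured, so these distances are a description.

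The table names 0 genes. The window was proposed as probable Gigyf2 from its position alone. No annotation of this build was used here, so the name was not established and the members are called by position. The labels do not say whether starts are counted from 0 or from 1, and spans are given as end minus start. Spans are distances along the genome, not lengths of the RNA, because no exon structure was used. Where a ring is said to lie inside, contain or overlap another, this refers to the genomic intervals only.

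The libraries came from total RNA of 4 sham rats' cortex samples and 4 samples from rats with moderate traumatic brain injury (mTBI), 1 library each. Tissue was taken 24 h after injury, from cortex around the injury in mTBI and from the matching site in sham, after perfusion with 100 ml of cold saline. The labels give neither strain, sex and age nor the way the injury was made, and they do not say whether each sample came from its own animal, so p-values measure the spread between these samples. With no gene names, the tissue was not checked against cell markers. Values are RPM, the reads that cross a back-splice junction after scaling to all reads of a library. The 8 libraries listed 21508 to 23713 circRNAs above 0 and summed to 4966 to 5874 RPM. The smallest listed value, 0.0257 to 0.0262 RPM, was taken as 2 reads, and all read numbers rest on that.

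A circRNA forms when the splicing machinery joins the end of an exon back to the start of the same exon or of one upstream, which leaves a closed ring with no free ends. Such rings are resistant to the enzymes that degrade linear RNA from its ends, and they are abundant in brain and especially in neurons. In the table, the start of a plus-strand circRNA is the upstream edge of the ring and the end is its downstream edge, so circRNAs with a common start or end use a common splice site with different partners. Because each ring is counted only at its junction, levels of different circRNAs can be set side by side without correction for length. Gigyf2, if the name holds, encodes a GYF-domain protein that works with the cap-binding protein Eif4e2 to repress translation.

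The dominant circRNA, which spans 17520 bases, stood at 64.3, 51.9, 61.9 and 61.9 RPM in sham replicates 1 to 4. In mTBI replicates 1 to 4 it stood at 52.5, 51.2, 60.1 and 57.4 RPM. Sham replicate 2 and mTBI replicates 1 and 2 were the low libraries, the other libraries of both groups were higher, and the groups overlapped. It ranked 1 in each of the 8 libraries, where the next circRNA of the table reached 49.2 to 55.8 RPM. The margin was small in some libraries, at 51.9 against 50.2 RPM in sham replicate 2 and 51.2 against 50.99 RPM in mTBI replicate 2. The low libraries, sham replicate 2 and mTBI replicates 1 and 2, also had the lowest summed circRNA RPM. Their sums were 5148, 4966 and 5002 RPM, against 5434 to 5874 RPM in the others. The dominant circRNA made up 0.978% (mTBI replicate 4) to 1.17% (sham replicate 1) of all circRNA RPM in a library. Behind each of its values lay 3963 to 4980 reads.

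Within its locus, it made up 88.99%, 87.4%, 87.3% and 87.8% of the RPM in sham replicates 1 to 4. In mTBI replicates 1 to 4 the share was 86.8%, 87.5%, 88.2% and 87.0%. All 8 shares lay within 86.8% to 88.99%, with the highest in sham replicate 1 and the lowest in mTBI replicate 1. Because the circRNA is most of its own denominator, a small spread of this share is built in. Relative to the second circRNA of the locus, its level ran from 13.4 to 16.8 times, a coefficient of variation of 6.70% over the 8 libraries, beside 8.97% for its level. Exact 95% binomial (Clopper-Pearson) intervals ran from 88.1% to 89.8% for the highest library and from 85.8% to 87.7% for the lowest. They treat reads as independent, and amplified reads are not independent molecules, so they may be too narrow even for counting error. They also leave out the variation between samples.

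**Figure D1:**
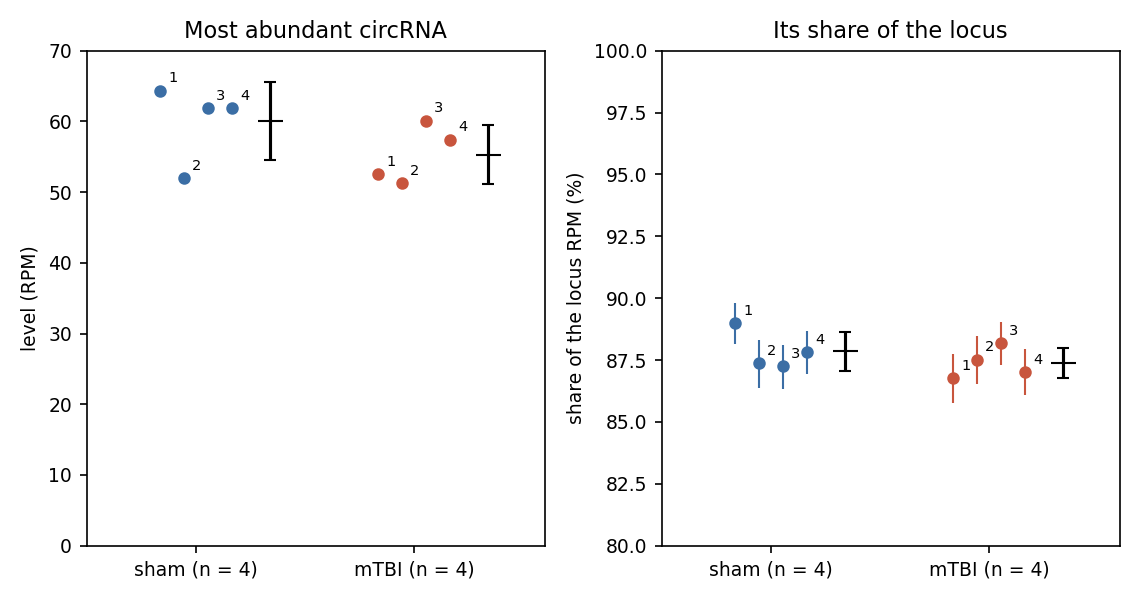
Level of the dominant circRNA in RPM (left, axis from 0) and its share of the locus RPM in percent (right, axis from 80 to 100), 1 point per library numbered by replicate, with black bars for the mean and SD of each group (n = 4) and coloured bars on the right for exact 95% binomial intervals. Levels run from 51.2 to 64.3 RPM and shares from 86.8% to 88.99%, and both overlap between groups.

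The next 3 circRNAs by level all used the same start, 94463647, with other ends. The second, ending at 94474809, spans 11162 bases and lies inside the dominant ring. It stood at 4.21, 3.29, 4.33 and 3.69 RPM across the sham libraries and at 3.92, 3.47, 3.89 and 3.80 RPM across the mTBI libraries, replicates 1 to 4. Its mTBI values lay within the sham range.

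The third, ending at 94464799, is the shortest of the members listed in all 8 libraries, at 1152 bases. It stood at 1.98, 1.77, 2.46 and 2.37 RPM across the sham libraries and at 1.69, 1.94, 2.19 and 2.15 RPM across the mTBI libraries. The fourth, ending at 94504892, spans 41245 bases and contains the dominant ring. It stood at 0.969, 1.31, 1.49 and 1.43 RPM across the sham libraries and at 1.17, 1.23, 1.06 and 1.51 RPM across the mTBI libraries. For both, the groups overlapped. The third was lowest in mTBI replicate 1 and highest in sham replicate 3, and the fourth was lowest in sham replicate 1 and highest in mTBI replicate 4. With the dominant circRNA, these 3 made up 97.996% to 98.9% of the locus RPM in each library.

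Set against the dominant circRNA of the same library, the second stood at 5.96% to 7.47% of its level, the third at 3.07% to 3.97% and the fourth at 1.51% to 2.62%. The order of these 4 circRNAs was the same in every library. The ranges of the second, the third and the fourth did not touch, so neighbours in that order differed by more than their spread. Along the common start, level did not follow span: with rising distance of the end, the means of the members listed in all 8 libraries were 2.07, 3.83, 57.7, 0.133, 1.27 and 0.217 RPM for ends 1.152, 11.162, 17.520, 18.035, 41.245 and 49.484 kb away.

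**Figure D2:**
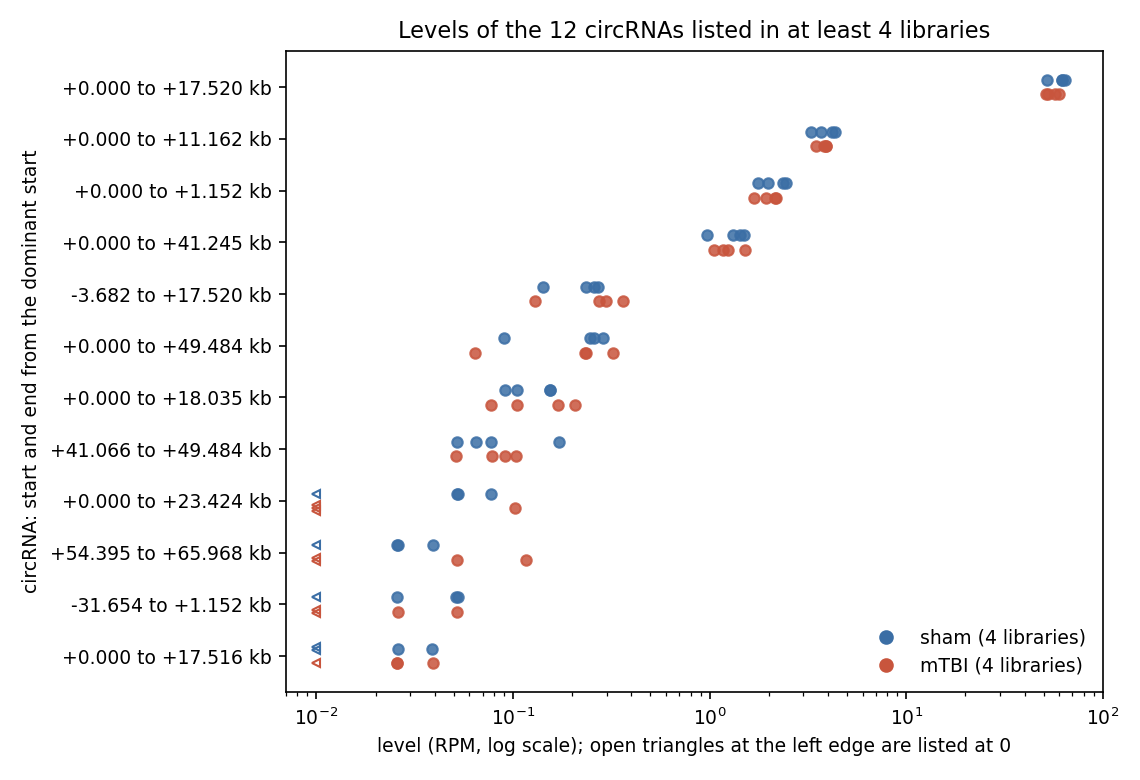
Levels in RPM (log axis) of the 12 circRNAs listed in at least 4 libraries, 1 row each, named by their start and end in kb from the dominant start, with 4 sham and 4 mTBI points per row and open triangles for libraries listed at 0. The dominant circRNA stands apart at 51.2 to 64.3 RPM, and sham and mTBI points overlap in every row.

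Another 4 members were listed in all 8 libraries, at means of 0.0860 to 0.246 RPM. The circRNA from 94459965 to 94481167 starts 3682 bases upstream of the dominant start and shares the dominant end. It stood at 0.271, 0.236, 0.142 and 0.258 RPM across the sham libraries and at 0.361, 0.129, 0.274 and 0.298 RPM across the mTBI libraries. The lowest and the highest of its 8 values were both in mTBI, so the groups overlapped.

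The longest member listed in all 8 libraries, from 94463647 to 94513131, spans 49484 bases. It stood at 0.0904, 0.288, 0.246 and 0.258 RPM across the sham libraries and at 0.323, 0.0643, 0.234 and 0.234 RPM across the mTBI libraries. Here 1 library of each group was low, sham replicate 1 and mTBI replicate 2, and the rest stood between 0.234 and 0.323 RPM. The circRNA from 94463647 to 94481682, whose end lies 515 bases beyond the dominant end, stood at 0.155, 0.105, 0.0906 and 0.155 RPM across the sham libraries and at 0.206, 0.0772, 0.104 and 0.169 RPM across the mTBI libraries.

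The eighth, from 94504713 to 94513131, shares neither dominant site and lies wholly downstream of the dominant ring. It stood at 0.0775, 0.170, 0.0518 and 0.0645 RPM across the sham libraries and at 0.103, 0.0515, 0.0912 and 0.0779 RPM across the mTBI libraries, or 4 to 13 reads per library. These 4 members varied much more than the leading ones relative to their mean, with coefficients of variation over the 8 libraries of 31.5% to 44.9%, against 8.97% to 15.7% for the 4 leading circRNAs. They rest on few reads, and the part of counting error in that spread was not tested.

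The 33 circRNAs used 15 starts and 16 ends. Of 177 pairs that put an end downstream of a start, 33 were listed. Of the starts and ends, 6 and 7 were used by more than 1 circRNA, and 17 of the 31 possible pairs of these were listed. These sites were kept because several of their pairs were listed, so the larger listed fraction is built in. The start at 94463647 served 13 of the 33 circRNAs and carried 98.9% to 99.4% of the locus RPM in each library. The dominant end, 94481167, served 7 circRNAs and carried 87.4% to 89.4%. Because the dominant circRNA sets most of both figures, the other 32 circRNAs were also summed alone: 12 with the dominant start held 91.6% to 95.6% of their RPM, 6 with the dominant end 1.76% to 4.52%, and 14 with neither 1.43% to 4.19%.

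**Figure D3:**
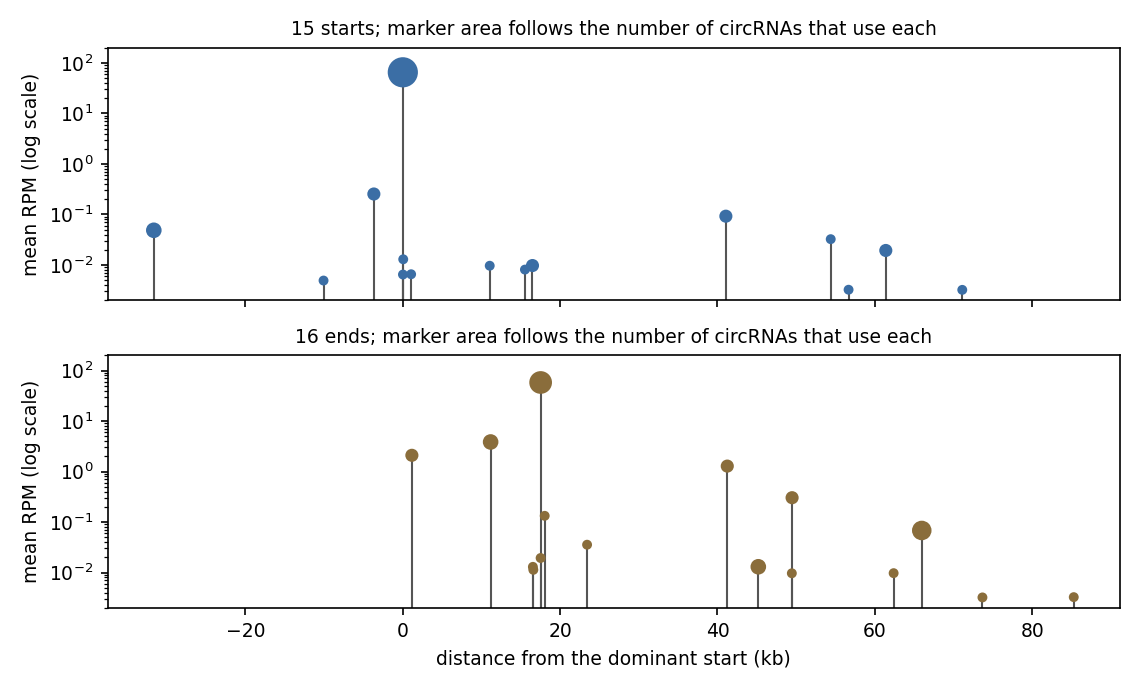
Mean RPM over 8 libraries (log axis) of all circRNAs that use each start (upper) and each end (lower), by distance in kb from the dominant start, with the marker area following how many circRNAs use the site. A single start carries 65.3 RPM with 13 circRNAs and the next start 0.254 RPM, while 5 ends each carry more than 0.3 RPM.

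The ends were less concentrated than the starts. After the dominant end, at 57.96 RPM with its 7 circRNAs, came the ends 94474809 at 3.85 RPM, 94464799 at 2.09 RPM, 94504892 at 1.28 RPM and 94513131 at 0.303 RPM, each the sum over its circRNAs and the mean of 8 libraries. The second most used start, 94459965, carried 0.254 RPM. It was joined to 2 of the ends that the main start also used, at 0.246 RPM with the dominant end and 0.00807 RPM with 94474809.

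A start 31654 bases upstream, at 94431993, marks the upstream edge of the window and was joined to 3 of the same ends. With 94464799 it gave a circRNA at 0.0258, 0.0524, 0 and 0.0516 RPM in sham and 0.0516, 0, 0 and 0.0260 RPM in mTBI. With 94481167 it was listed in sham replicates 2 and 3 only, at 0.0393 and 0.0518 RPM, and with 94474809 in 3 libraries. At 2 to 4 reads per listed value, no order among these ends can be read for this start.

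**Figure D4:**
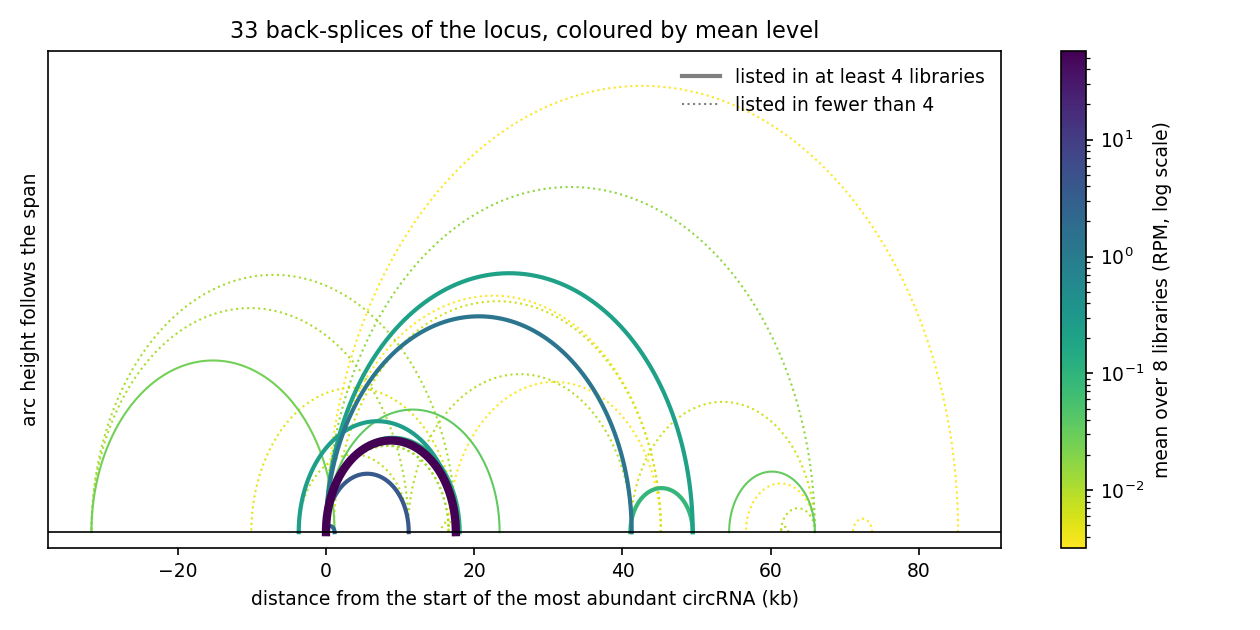
Arcs joining the start and end of each of the 33 back-splices, by distance in kb from the dominant start, coloured by mean RPM (log scale), with the thickest arc for the dominant circRNA, medium arcs for the others listed in all 8 libraries and dotted arcs for those listed in fewer than 4. The abundant arcs fan out from 1 start, and 7 circRNAs lie wholly downstream of the dominant ring.

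By position, 8 circRNAs lay inside the dominant ring and together held 8.51% to 9.75% of the locus RPM. Another 11 contained it and held 2.16% to 3.59%. A further 7 lay apart from it, all downstream, and held 0.143% to 0.353%, and 6 overlapped it in part, at 0 to 0.192%. Far downstream, the end 94529615 served 5 circRNAs, 4 of them wholly beyond the dominant ring, and carried 0.0681 RPM. Of them, the one from 94518042 was the most listed, at 0.0258, 0.0393, 0.0259 and 0 RPM in sham and 0.0516, 0, 0 and 0.117 RPM in mTBI.

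Some sites lay within a few bases of a much more used one. A circRNA with the main start ended at 94481163, 4 bases before the dominant end, and stood at 0, 0, 0.0259 and 0.0387 RPM in sham and 0.0258, 0.0257, 0.0391 and 0 RPM in mTBI, 2 or 3 reads where listed. The starts 94463665 and 94463700 lay 18 and 53 bases after the main start and were used by 1 circRNA each, at means of 0.00647 and 0.0130 RPM. The end 94513099 lay 32 bases before 94513131 and was used in sham replicate 4 only, at 0.0774 RPM. Whether such close sites are separate splice sites or misplaced junctions was not tested. In 3 places a start lay 95, 114 or 179 bases upstream of an end that the main start also used (94464704 with 94464799, 94474695 with 94474809, and 94504713 with 94504892), so that these stretches were bounded by back-splices on both sides. The start 94464704 rests on 4 reads, in sham replicate 2 only, and 94474695 on 6 reads, in mTBI replicates 1 and 2 only. The start 94504713 was listed in all 8 libraries. No annotation of this build was used, so the stretches are not called exons here.

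Most members were rare. Of the 33, 8 were listed in all 8 libraries, 12 in at least 4, and 21 in fewer than 4, 11 of these in 1 library only. Over the whole table, 20174 of 51995 circRNAs were listed in at least 4 libraries and 9082 in all 8, so rarity is not particular to the locus. The 21 rare members held 0.143% to 0.352% of the locus RPM, with 2 to 10 reads each over all 8 libraries. They were listed in sham only for 8, in mTBI only for 6 and in both for 7. The 11 listed in 1 library fall in 1 group by construction. The same split was not counted over the whole table, so it is not a result about the locus. Among them, the circRNA from 94479170 to 94481167 was listed in sham replicate 3 at 0.0259 RPM and in mTBI replicate 4 at 0.0389 RPM. Those at both extremes of span were rare too, 996 bases from 94525043 to 94526039 and 85289 bases from 94463647 to 94548936.

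The comparison of injured with sham cortex asked whether the circRNAs of the locus differed in level, in number or in their shares. In bulk tissue, fewer cells of a type and less RNA per cell cannot be told apart. Of the 12 members tested, 0 passed an adjusted p of 0.05 and 0 had an unadjusted p under 0.05 (limma, Benjamini-Hochberg adjustment over all circRNAs tested), where 5 of 20174 circRNAs passed in the whole table, or 0.0248%, and 4.68% had an unadjusted p under 0.05. The sham and mTBI values overlapped for all 12, against 2.81% of circRNAs without overlap in the table. Changes are on the scale of log2(RPM + 0.0259), which understates them for low circRNAs. The median log2 change of the 12 was -0.06, beside -0.02 over all circRNAs tested, and the 12 ranged from -0.72 to 0.25. Of the 12, 8 lay below 0 and 4 above, beside 10481 below and 9693 above over all circRNAs tested.

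The dominant circRNA averaged 60.0 ± 5.51 RPM over the sham libraries and 55.3 ± 4.16 RPM over the mTBI libraries (SD, n = 4 each). Its log2 change was -0.12 (SE 0.11, limma adjusted p = 0.976), with a 95% interval from -0.33 to 0.10. It was the member with an unadjusted p under 0.05 in 3 alternatives, at an adjusted p of 0.622 to 0.973 (limma). The interval for the second circRNA ran from -0.32 to 0.25 around a log2 change of -0.03, and that for the third from -0.43 to 0.23 around -0.10. For the fourth it ran from -0.43 to 0.32 around -0.06. These 4 intervals exclude a log2 change of 0.5 in either direction, and those of the other 8 tested members do not.

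Among the 8 members with a negative change, the smallest unadjusted p was 0.257, for the circRNA from 94463647 to 94487071. It stood at 0.0517, 0.0524, 0 and 0.0774 RPM across the sham libraries. In mTBI it was listed in replicate 2 only, at 0.103 RPM, the highest of its 8 values. The other 2 smallest were those of the dominant circRNA (0.282) and of the circRNA from 94431993 to 94464799 (0.495). Among those with a positive change, the smallest were 0.621, 0.652 and 0.771, for the circRNAs from 94459965 to 94481167, from 94463647 to 94481163 and from 94518042 to 94529615.

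Values over the whole locus were compared between the groups with two-sided exact permutation tests. The 70 possible assignments set the smallest possible p at 0.0286. The share of the dominant circRNA was 87.9 ± 0.794% in sham and 87.4 ± 0.622% in mTBI (SD, n = 4 each, exact permutation p = 0.429). The difference of -0.48 percentage points, with a 95% interval from -2.21 to 0.926 by inversion of the test, was smaller than either SD. The locus total averaged 68.3 ± 5.95 RPM over the sham libraries and 63.3 ± 4.52 RPM over the mTBI libraries (exact permutation p = 0.200), and the other 32 circRNAs summed to 8.27 ± 0.676 and 7.98 ± 0.517 RPM (exact permutation p = 0.543).

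Sham replicate 2 stood low in the locus total, at 59.5 RPM against 70.5 to 72.3 RPM in the other sham libraries, and it also listed the fewest circRNAs of the whole table, 21508. Without it, the difference in locus total grew from -5.00 to -7.95 RPM (exact permutation p = 0.0571, over fewer than 70 assignments). The remaining sham libraries then stood above all mTBI libraries, at 58.5 to 68.2 RPM. Sham replicate 2 was singled out after its low value was seen, so that separation is a description only. The part of sham replicate 2 in the result beyond that was not tested. Each sham library listed 15 members, and mTBI replicates 1 to 4 listed 14, 15, 13 and 15 (exact permutation p = 0.429).

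The use of the dominant splice sites by the other 32 circRNAs was compared as well. The dominant start carried 94.1 ± 1.78% of their RPM in sham and 93.2 ± 1.26% in mTBI (exact permutation p = 0.429), with an interval for the difference from -3.79 to 3.09 percentage points. The dominant end carried 3.40 ± 0.559% in sham and 3.57 ± 1.23% in mTBI (exact permutation p = 0.886), with an interval from -2.42 to 1.51. In mTBI replicate 2 that share was 1.76%, the lowest of the 8. Adjusted over these 6 values, the permutation p ran from 0.643 to 0.886, and 0 of the 6 passed 0.05.

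The locus was set beside the other abundant loci of the table, as a description, since it was chosen for its dominant circRNA. Joining circRNAs of 1 strand by a shared start or end gave 67 loci of at least 10 RPM. Of the 33 members, 31 were joined in 1 such locus, which had the highest total of the 67, at 65.8 RPM. The 2 left over shared neither site with another circRNA, from 94463700 to 94480182 and from 94534764 to 94537329. Its top circRNA held 87.7% of the mean RPM, rank 15 of 67, where the other loci ran from 10.6% to 100% with a median of 57.9%. The loci ranked above it each held fewer than 31 circRNAs. After it by total came loci of 57.7, 55.5 and 54.9 RPM, with top shares of 22.6%, 18.8% and 69.0%. The next by total, at 54.1, 50.9, 40.3 and 39.9 RPM, had higher top shares than the chromosome 9 locus, at 95.2%, 90.4%, 90.7% and 90.3%. Among the 23 loci with at least 31 circRNAs, the chromosome 9 locus ranked 1, and the other 22 ran from 10.6% to 69.6%. That cutoff is the count of the locus itself, of which 12 were listed in at least 4 libraries. Just below the cutoff, a chromosome 5 locus of 26 circRNAs stood at 85.7%.

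**Figure D5:**
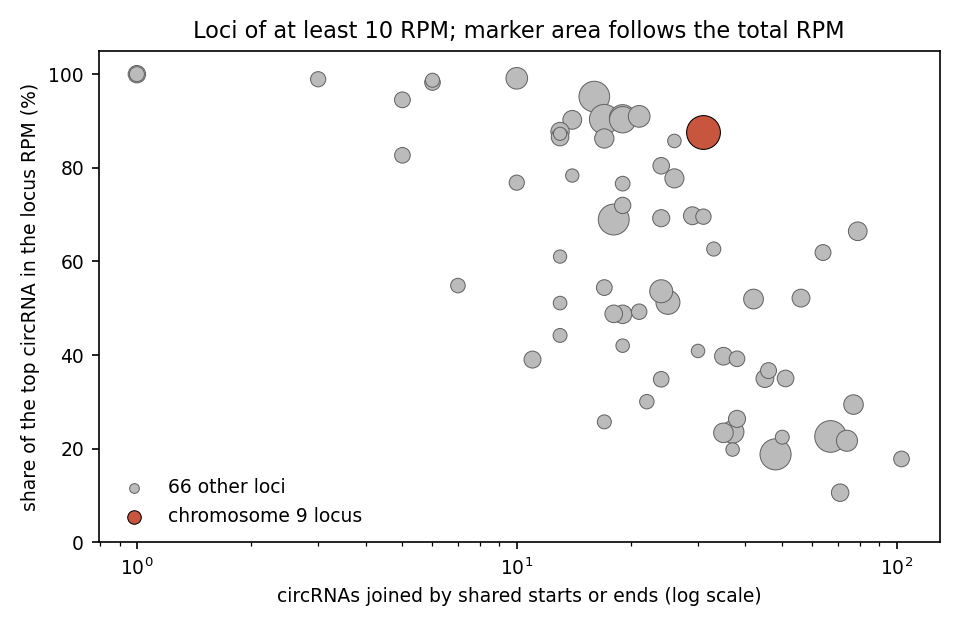
Share of the top circRNA in the locus RPM (percent) against the number of circRNAs joined by shared starts or ends (log axis) for the 67 loci of at least 10 RPM, with marker area following the total RPM. The chromosome 9 locus lies at 31 circRNAs and 87.7%, above every other locus with as many circRNAs.

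Outside the locus, 870 circRNAs with a mean of at least 1 RPM and a value in every library were ranked by how closely their log2 RPM followed that of the dominant circRNA over the 8 libraries. The 3 closest were 1 on chromosome 8 (plus strand, 508994 to 509712), 1 on chromosome 4 (minus strand, 11098246 to 11146275) and 1 on chromosome 14 (minus strand, 37238505 to 37262083), with means of 11.7, 1.02 and 4.87 RPM. The first stood at 13.6, 10.1, 12.4 and 12.2 RPM across the sham libraries and at 11.2, 9.94, 12.5 and 11.5 RPM across the mTBI libraries. Like the dominant circRNA, it was lowest in sham replicate 2 and mTBI replicate 2. All points share their libraries and depth, and the closest of many always look alike, so this is a description only.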

How the data were processed

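Junction reads of circRNAs were compared in 8 rat cortex libraries, 4 sham and 4 mTBI, made from total RNA (RNA integrity of 7 or more) with a stranded, ribosome-depleted protocol, per the labels. The authors deposited RPM values in 1 table. Trimmomatic 0.36 and DESeq are named, with no role given, beside the build Rnor 6.0, per the submitters' processing notes. Which aligner and caller they used was not given in the sources used here. All values above 0 (100%) were whole multiples, within 0.01, of 0.5 times the library's smallest value, so that value was taken as 2 reads. This gave 384910 to 452692 circRNA reads per library. Columns headed Con were taken as sham, with the replicate of their number.

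The circRNAs listed in 4 or more libraries were fitted together, over the whole table, with limma 3.58.1 (R 4.3.3; lmFit, eBayes with trend) on log2(RPM + 0.0259), the median smallest value. Single values per library were compared by exact permutation. Functions were tested on simulated data. Python 3.11.15, numpy 2.4.6, pandas 2.3.3, scipy 1.17.1 and matplotlib 3.10.9 were used. Named are the dominant circRNA, the next 8 by mean, up to 3 sharing each of its ends, the shortest and longest in all libraries, the 3 smallest p per direction and the 3 outside circRNAs most like it. Members and lists were chosen with earlier results of these data known. Lists of genes and cell markers had been prepared, and with 0 genes named in the table they were not used. Alternatives covered pseudocount, filter, scaling, variance model, locus definition, replicate number and each library left out. No sequence is shown, because no genome of this build was used.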

Additional observations from a re-analysis of the deposited data

Results flagged for a closer look

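In 38 groups of 4 libraries, covering the 6 locus values and the named circRNAs, 4 libraries stood far from the other 3 of their group, by the gap to the nearest library divided by the range of the group, which exceeded Dixon's 95% critical value. Chance flags about 1 group in 20, and where a single library is above 0 the ratio is 1 by construction. The locus total of sham replicate 2 was 59.5 RPM against 70.5 to 72.3 RPM in the other sham libraries (ratio 0.857). The circRNA from 94463647 to 94487071 was listed in mTBI replicate 2 only of its group, at 0.103 RPM. The circRNA from 94479170 to 94481167 was listed in sham replicate 3 only of its group, at 0.0259 RPM, and in mTBI replicate 4 only, at 0.0389 RPM.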

How the results depend on the processing

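Over all 19 alternatives to the test of each circRNA, 0 members of the locus passed the threshold. An unadjusted p under 0.05 was seen for 1 member, the dominant circRNA, in 3 of them: 0.0199 with no filter, 0.0403 with robust shrinkage and 0.0142 with limma voom (limma adjusted p = 0.622, 0.973 and 0.769). The count for the whole table, 5, was 10 with 4 times the pseudocount, 55 with no filter, 1 for circRNAs listed in all 8 libraries, 9 with median centring, 1 without the variance trend, 23 with robust shrinkage and 2 to 9 with each library left out. It was 0 with the replicate block (889 at an unadjusted p under 0.05), and, chosen after seeing the data, 3 with limma voom on reads and 0 with a mean of at least 0.1 RPM (369 at an unadjusted p under 0.05). The cause was not tested. The replicate numbers are shared by label only: deviations of same-numbered libraries correlated at -0.0142 to 0.0242, 2 of 4 sham libraries correlated best with their own number, and the block changed no call in the locus. The difference in members listed was -0.75, and 0.5 for those of at least 0.1 RPM. With each library left out, the difference in the dominant share ran from -0.75 to -0.102 percentage points, in locus total from -7.95 to -3.41 RPM, in the sum of the other 32 circRNAs from -0.55 to -0.0386 RPM, in the use of the dominant start from -1.69 to -0.377, and in the use of the dominant end from -0.153 to 0.766. On the same basis the log2 change of the dominant circRNA ran from -0.18 to -0.08. It turned sign for the members ending at 94474809 (-0.11 to 0.022), 94504892 (-0.19 to 0.016) and 94481682 (-0.12 to 0.27) with the main start, 94463647 to 94513131 (-0.43 to 0.31), 94459965 to 94481167 (-0.023 to 0.44), 94504713 to 94513131 (-0.22 to 0.22) and 94518042 to 94529615 (-0.31 to 0.52; -0.011 with limma voom). The named members listed in fewer than 8 libraries rest on 2 to 9 reads where listed.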
